A study of Homo sapiens with 4 samples.

Results

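The 8 genes described here encode receptors through which haematopoietic growth factors and cytokines act on myeloid cells: KIT, FLT3, CSF1R, CSF2RA, CSF2RB, CSF3R, IL3RA and IL6R. They were chosen by name, and every probe set annotated to one of them alone was used, which gave 14 of the 54675 probe sets of the array and 8 of the 19775 genes it names. Expression was measured in THP-1 cells, an established human line from an acute monocytic leukaemia, on 4 arrays. One array held cells kept with platelet-like particles for 24 h and another cells kept with them for 12 h, both after Pam3CSK4, a synthetic lipopeptide that activates TLR2 together with TLR1. The other arrays held cells given Pam3CSK4 alone and resting cells that had received neither. Each group was 1 array, so there was no spread between cultures, no test was possible, and every difference below compares those arrays. The labels do not name the source of the particles, the length of the treatment with Pam3CSK4 alone, or whether particles were removed before RNA was taken, so RNA of the cells and of any particles left with them cannot be told apart.

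Growth factor receptors of myeloid cells fall into 2 structural classes. KIT, FLT3 and CSF1R are receptor tyrosine kinases, which pair when their ligand binds and phosphorylate each other. KIT binds stem cell factor and FLT3 binds FLT3 ligand, both known for sustaining progenitor cells, while CSF1R binds CSF1 and IL-34 and is known for sustaining monocytes and macrophages. The others are class I cytokine receptors, which have no kinase of their own and signal through JAK kinases and STAT factors. CSF2RA and IL3RA are the chains that bind GM-CSF and IL-3, CSF2RB is the signalling chain they share with the IL-5 receptor, CSF3R binds G-CSF, and IL6R binds IL-6 and signals through IL6ST.

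Promoters of the receptor genes were taken from RefSeq on GRCh38.p14, as the 250 bases before an annotated transcription start, and 7 of the 8 genes matched, with 9 start sites between them. CSF2RB had no promoter entry. The promoters of KIT, CSF1R and CSF3R are shown as examples. With Pam3CSK4 KIT was lower and CSF1R higher than in resting cells, and CSF3R was lower on more than 1 probe set. They were not the 3 genes with the largest differences. Capitals mark the letters GAGGAA, the core that the myeloid factor PU.1 binds, on either strand.
KIT, chr4:54657707-54657956, plus strand: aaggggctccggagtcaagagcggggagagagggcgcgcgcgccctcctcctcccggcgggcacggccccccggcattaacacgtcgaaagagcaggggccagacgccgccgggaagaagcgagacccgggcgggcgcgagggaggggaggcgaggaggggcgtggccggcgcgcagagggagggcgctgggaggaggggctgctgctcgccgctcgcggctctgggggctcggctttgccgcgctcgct
CSF1R, chr5:150086555-150086804, minus strand: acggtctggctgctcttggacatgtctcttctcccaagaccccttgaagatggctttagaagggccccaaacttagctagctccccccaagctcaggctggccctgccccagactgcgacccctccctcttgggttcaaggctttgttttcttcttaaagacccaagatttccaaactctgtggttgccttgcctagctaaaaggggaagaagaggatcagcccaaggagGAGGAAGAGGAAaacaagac
CSF3R, chr1:36482914-36483163, minus strand: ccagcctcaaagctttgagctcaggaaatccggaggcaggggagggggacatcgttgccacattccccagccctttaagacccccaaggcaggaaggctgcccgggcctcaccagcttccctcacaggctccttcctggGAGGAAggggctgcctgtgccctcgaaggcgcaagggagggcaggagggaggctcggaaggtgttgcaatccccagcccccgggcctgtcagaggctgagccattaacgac
GAGGAA was found before 5 of the 9 start sites, against 23.6% of 35093 promoters of the same length. In the CSF1R promoter shown the letters began 20 and 14 bases before the start and lay end to end, and in that of CSF3R they began 111 bases before it. The other start sites with a match were those of CSF2RA, FLT3 and IL6R. The letters TTGCNNAA of the C/EBP site were found before the other CSF3R start and before that of IL3RA, against 9.05% of all promoters, and TGANTCA of the AP-1 site before the other CSF1R start, against 6.57%. No match lay in the KIT window, and no matches of different motifs overlapped. A match is a description of the letters only.

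Values are RMA values on the log2 scale, so a difference of 1 is 2-fold. The median of all values, 6.19, served as the filter level, below which signal over background was not established. The highest-reading probe set of each gene represented it, and all 8 receptor genes reached the filter level on at least 1 array, as did 13410 of the 19775 genes. The 8 monocytic marker genes that could be read, among them LYZ, CD14, ITGAM and CD4, were at or above that level on each of the 4 arrays, which fitted the label of the cells, and CD33 and CD68 had no probe set of their own. For GAPDH, the control probe set at the 3' end exceeded that at the 5' end, a gap that widens as RNA degrades, by 0.70 at 24 h, 0.92 at 12 h and 0.59 with Pam3CSK4, against 2.16 log2 in resting cells. The like gap for ACTB was wide throughout, 2.90 at 24 h, 3.17 at 12 h and 2.91 with Pam3CSK4, against 3.41 log2 in resting cells. Both gaps were widest on the resting array and next widest at 12 h, the same 2 arrays on which KIT, below, was highest and next highest. This measure of RNA integrity thus moved with the comparison of Pam3CSK4 and resting cells and, by less, with that of 12 h and Pam3CSK4, and its part in the differences below was not tested. Between the closest pair of arrays, 24 h and Pam3CSK4, the median size of the difference over all tested genes was 0.08, and 95% of genes lay within 0.27.

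**Figure D1:**
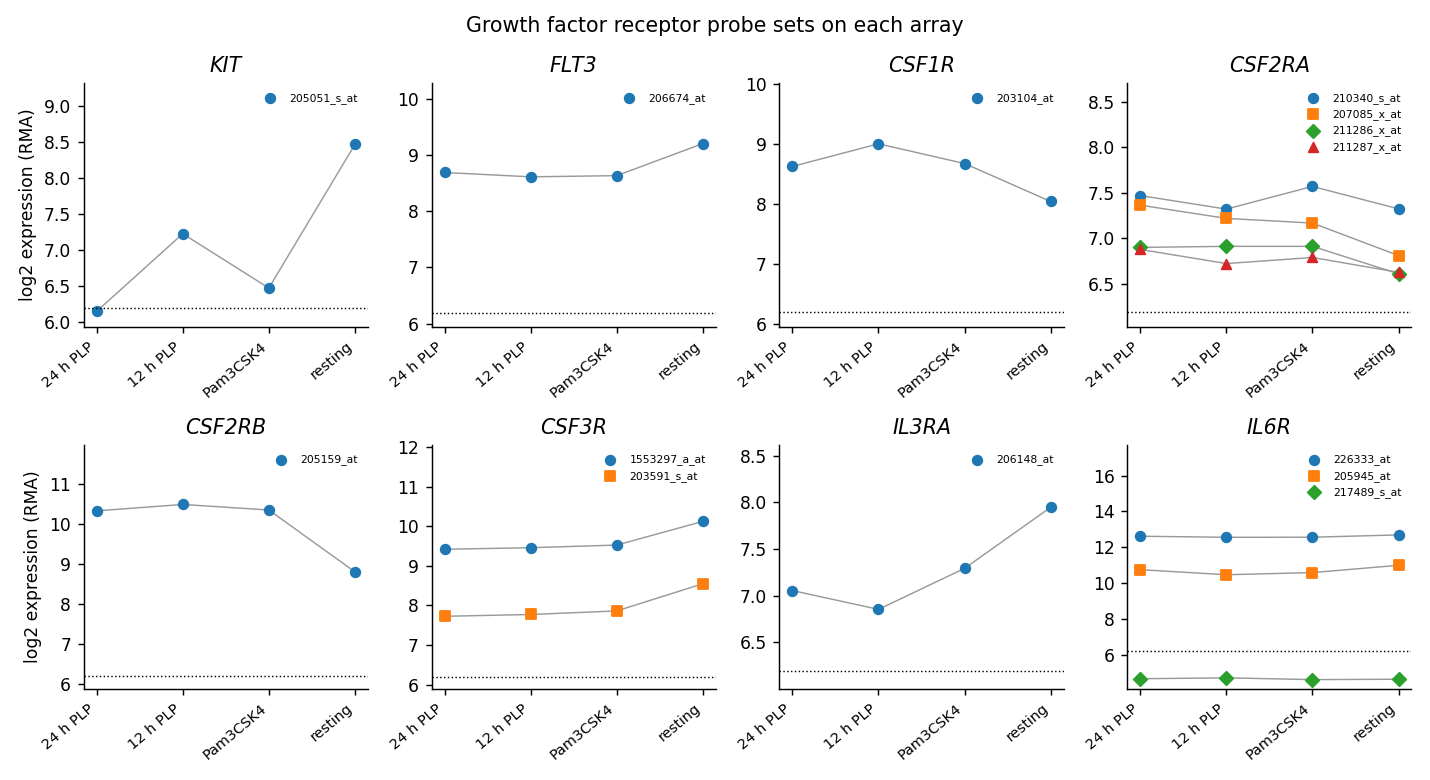
Log2 RMA expression of the 14 probe sets of the 8 receptor genes (vertical axes, 1 panel per gene, each with its own range) on the 24 h and 12 h co-culture, Pam3CSK4 and resting arrays. Each point is 1 probe set on 1 array, colours and shapes separate probe sets, lines only join the points of a probe set, and the dotted line is the filter level of 6.19. KIT was highest on the resting array at 8.47 and CSF2RB was lowest there at 8.81.

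Among the receptor kinases, KIT varied most between the arrays. Its single probe set read 6.15 at 24 h, 7.23 at 12 h and 6.47 with Pam3CSK4, against 8.47 in resting cells. The resting array was the highest of the 4, the 12 h array came next, and the 24 h value lay just under the filter level. These levels stood at percentiles 49.6, 66.1 and 55.0 of all probe sets at 24 h, at 12 h and with Pam3CSK4, against 79.3 in resting cells. With Pam3CSK4 alone KIT was 3.99-fold lower than in resting cells, a difference of -2.00, which placed it 29th from the bottom of the 13410 tested genes.

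FLT3 read 8.69 at 24 h, 8.61 at 12 h and 8.64 with Pam3CSK4, against 9.21 in resting cells. The 3 arrays of activated cells lay within 0.08 of each other, all below the resting array, and the difference with Pam3CSK4 was -0.57. CSF1R ran the other way. It read 8.62 at 24 h, 9.00 at 12 h and 8.67 with Pam3CSK4, against 8.04 in resting cells. Its difference with Pam3CSK4 was 0.63, and the 12 h array was the highest. Of the 3 kinase genes, KIT alone was past 2-fold with Pam3CSK4. FLT3 did not reach 1.5-fold, and of all tested genes 57.7% were lower with Pam3CSK4 than in resting cells by any size.

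Among the cytokine receptors, CSF2RB, the shared signalling chain, had the largest difference. It read 10.34 at 24 h, 10.50 at 12 h and 10.36 with Pam3CSK4, against 8.81 in resting cells. The activated arrays lay close together and far above the resting one, and with Pam3CSK4 alone the gene was 2.93-fold higher, a difference of 1.55. The chains that bring ligands to it did not share that size. CSF2RA, the GM-CSF binding chain, read 7.47 at 24 h, 7.32 at 12 h and 7.57 with Pam3CSK4, against 7.32 in resting cells, on its representative probe set. Its 4 probe sets differed by 0.16 to 0.36 with Pam3CSK4, all positive. Of these, 3 carry the suffix _x_at, which marks probes that can bind related transcripts. IL3RA, the IL-3 binding chain, read 7.05 at 24 h, 6.85 at 12 h and 7.29 with Pam3CSK4, against 7.95 in resting cells. Its resting value was the highest, and the difference with Pam3CSK4 was -0.65, under 2-fold.

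CSF3R, the G-CSF receptor of the granulocyte lineage, was lower on each activated array on both of its probe sets. The representative one read 9.42 at 24 h, 9.46 at 12 h and 9.52 with Pam3CSK4, against 10.12 in resting cells. The other read 7.72 at 24 h, 7.77 at 12 h and 7.86 with Pam3CSK4, against 8.55 in resting cells. The differences with Pam3CSK4 were -0.60 and -0.69. IL6R, the ligand-binding chain for IL-6, was nearly level on its representative probe set, at 12.61 at 24 h, 12.55 at 12 h and 12.56 with Pam3CSK4, against 12.68 in resting cells. Another IL6R probe set read 10.74 at 24 h, 10.46 at 12 h and 10.58 with Pam3CSK4, against 10.99 in resting cells, a difference of -0.41 with Pam3CSK4 against -0.13 on the first. The remaining one stayed between 4.60 and 4.70, under the filter level on every array.

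Cells given Pam3CSK4 alone were first compared with resting cells. Of the 8, 1 was at least 2-fold higher, CSF2RB, where 4.14% of all tested genes were, and 1 was at least 2-fold lower, KIT, where 1.71% were. At 1.5-fold, CSF1R and CSF2RB were higher and KIT, CSF3R and IL3RA lower, 2 and 3 of the 8, against 7.58% and 5.89% of all tested genes. The median difference of the 8 genes was -0.35 and that of all tested genes -0.05. The median size without sign was 0.61 for the 8 and 0.18 for all tested genes. The probe sets above the filter level had 1 sign within each of the 3 genes read more than once. In bulk RNA, fewer cells carrying a transcript and less of it per cell cannot be told apart.

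**Figure D2:**
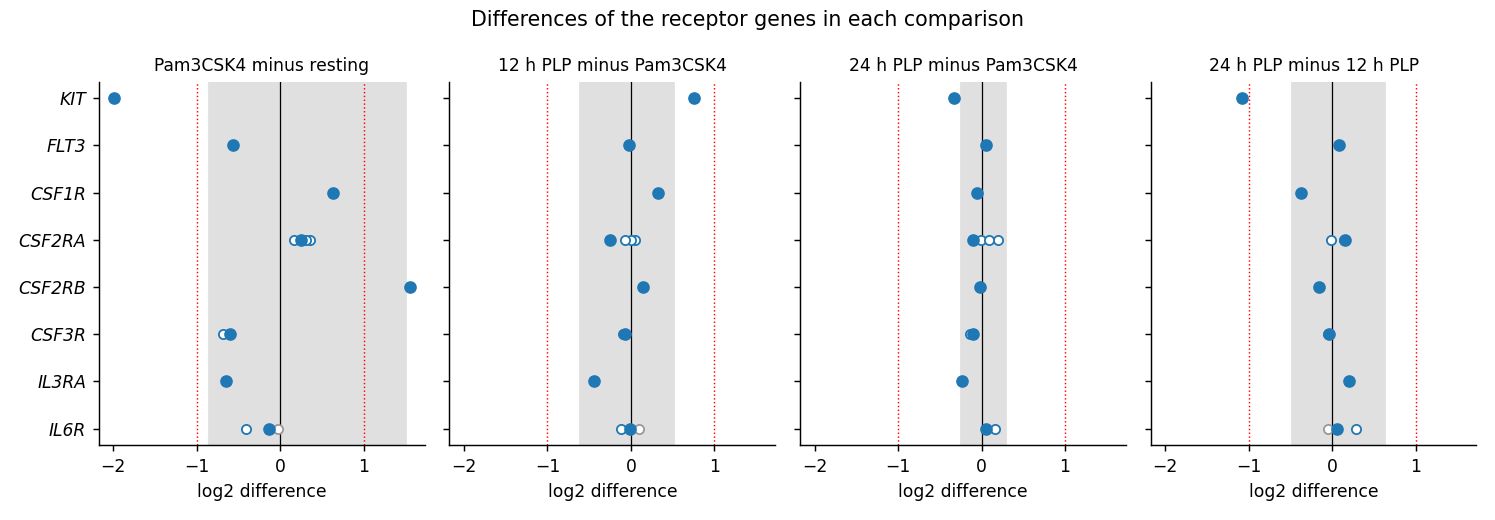
Log2 differences of the receptor genes in the 4 comparisons named above the panels, with 1 row per gene. Filled points are the representative probe sets, open points the other probe sets (grey where under the filter level on every array), dotted red lines mark 2-fold, and the grey band holds the central 95% of all tested genes. KIT lay outside the band in each panel, at -2.00, 0.75, -0.32 and -1.08, and CSF2RB lay outside it at 1.55 in the first.

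The 12 h co-culture array was next compared with that of Pam3CSK4 alone. None of the 8 receptor genes differed by 2-fold in either direction, where 0.761% of all tested genes did. KIT was 1.69-fold higher than with Pam3CSK4 alone, a difference of 0.75 and 131st from the top of the tested genes, and it was the 1 member past 1.5-fold on the high side, against 1.9% of all tested genes. Its 12 h value of 7.23 stayed below the resting value of 8.47. CSF1R differed by 0.33, IL3RA by -0.44 and CSF2RB by 0.14. FLT3, CSF3R and the representative IL6R probe set differed by -0.02, -0.07 and -0.0047. The 4 probe sets of CSF2RA ran from -0.25 to 0.05, so their sign was mixed. The median of the 8 was -0.01, against -0.05 over all tested genes.

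Markers of other cells that could carry KIT or come with the particles moved as follows. Of 14 megakaryocyte and platelet genes 12 could be read, and 7 passed the filter, with a median difference of 0.38 at 12 h. The summed linear level of the 12 was 991 at 24 h, 1129 at 12 h and 898 with Pam3CSK4, against 949 in resting cells. PPBP and PF4, abundant platelet transcripts, were under the filter level on each of the 4 arrays, at 3.62 and 5.95 on the 12 h array. GP9, TREML1, GNG11, ITGB3 and GP1BA were above it on every array. At 12 h TREML1, SELP, GNG11, GP1BA, GP9 and ITGB3 differed from Pam3CSK4 by 0.34 to 0.54, and ITGA2B by -0.04. Like KIT, TREML1 and GP9 were highest in resting cells and next highest at 12 h. Other members of the list that passed the filter did not share that order. SELP, ITGB3, GNG11 and GP1BA were highest at 12 h, and GNG11 and GP1BA were lowest in resting cells, at 6.66 and 6.22. ITGA2B was highest in resting cells and next highest with Pam3CSK4. Of 11 erythroid genes 9 could be read, and 4 passed the filter, with a median of 0.28 at 12 h and 0.02 at 24 h. Their summed linear level was 922 at 24 h, 938 at 12 h and 801 with Pam3CSK4, against 753 in resting cells. The embryonic globin gene HBE1 read 7.50 at 24 h, 6.30 at 12 h and 5.45 with Pam3CSK4, against 5.42 in resting cells, so unlike KIT it was highest at 24 h, with differences from Pam3CSK4 of 2.05 at 24 h and 0.85 at 12 h. Its other probe set stayed under the filter level.

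Of 7 mast cell genes 6 could be read, and 3 passed the filter. Their summed linear level was 412 at 24 h, 394 at 12 h and 403 with Pam3CSK4, against 407 in resting cells. The tryptase genes TPSAB1 and TPSB2 were above the filter level on every array, at 6.88 and 6.54 at 12 h, and HDC was above it at 24 h and with Pam3CSK4. CPA3, FCER1A and CMA1 were under it on every array. The 6 neutrophil genes summed to 461 at 24 h, 424 at 12 h and 438 with Pam3CSK4, against 735 in resting cells, where CXCR2 differed by -1.07 with Pam3CSK4. The 5 lymphocyte genes that could be read summed to 1371 at 24 h, 1070 at 12 h and 1298 with Pam3CSK4, against 903 in resting cells. NKG7 carried most of these sums, at 10.02 log2 at 24 h, 9.45 at 12 h and 9.90 with Pam3CSK4, against 9.14 in resting cells. At 12 h it differed from Pam3CSK4 by -0.46, while CD3D, CD3E, MS4A1 and CD79A differed by 0.28, 0.24, 0.17 and 0.03. The 8 monocytic genes summed to 21134 at 24 h, 15130 at 12 h and 19417 with Pam3CSK4, against 12537 in resting cells. The sum was lower at 12 h than with Pam3CSK4. LYZ carried most of each sum, at 13.81 log2 at 24 h, 13.29 at 12 h and 13.70 with Pam3CSK4, against 12.98 in resting cells. Of the 8 monocytic genes, CD14, ITGAM and CD36 were past 2-fold with Pam3CSK4 at 2.40, 2.20 and 2.56 and MNDA at -1.14. These are representative probe sets, and another ITGAM probe set that passed the filter differed by -0.19. At 12 h CD14 differed by -1.18, MNDA by -1.16, ITGAM by -0.66, LYZ by -0.40, VCAN by -0.24 and CD4 by -0.01. FCGR2A and CD36 were higher at 12 h, by 0.40 and 0.16. Past 2-fold in either direction were 5.85% of all tested genes with Pam3CSK4 and 0.761% at 12 h. The part of these cell types in the receptor differences was not tested.

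The 24 h array was then set against Pam3CSK4 alone. Again none of the 8 reached 2-fold in either direction, where 0.0298% of all tested genes did, and none reached 1.5-fold, where 0.172% did. KIT was 1.25-fold lower, a difference of -0.32 and 105th from the bottom of the tested genes, from a value under the filter level at 24 h. IL3RA differed by -0.24, CSF3R by -0.11, FLT3 by 0.06, IL6R by 0.06, CSF1R by -0.05 and CSF2RB by -0.02 on representative probe sets. Another IL6R probe set differed by 0.16. The CSF2RA probe sets ran from -0.10 to 0.20. KIT and IL3RA had the largest sizes of the 8, above those of 97.3% and 92.0% of all tested genes. The 12 h and 24 h comparisons share the Pam3CSK4 array.

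Between the co-culture arrays, KIT was 2.11-fold lower at 24 h than at 12 h, a difference of -1.08. It was the only member of the 8 past 2-fold on the low side, where 0.224% of all tested genes were, and 26th from the bottom of the 13410. Because the 24 h value did not reach the filter level, the size of this difference is approximate. CSF1R differed by -0.38 and CSF2RB by -0.16. IL3RA differed by 0.20, CSF2RA by 0.15, FLT3 by 0.08, IL6R by 0.06 and CSF3R by -0.04 on representative probe sets. The CSF2RA probe sets ran from -0.01 to 0.16, so their sign was mixed, and another IL6R probe set differed by 0.28.

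The receptors' ligands were mostly low on these arrays. Of 9 ligand genes 8 could be read, 5 passed the filter, and none differed by 2-fold in any comparison. CSF2, which encodes GM-CSF, was not analysed here. KITLG, the stem cell factor gene, read 8.90 at 24 h, 9.39 at 12 h and 8.82 with Pam3CSK4, against 9.56 in resting cells. Like its receptor it was highest in resting cells and next highest at 12 h, with differences of -0.75 with Pam3CSK4 and 0.57 at 12 h. IL6 read 5.65 at 24 h, 6.33 at 12 h and 5.65 with Pam3CSK4, against 5.48 in resting cells, so it passed the filter level on the 12 h array alone. CSF1, IL34 and CSF3 differed by at most 0.19 in size with Pam3CSK4 on their representative probe sets. FLT3LG, IL3 and IL5 were under the filter level on every array.

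Of 11 partner and related receptors 10 could be read, 5 passed the filter and 2 were at least 2-fold higher with Pam3CSK4. Of all tested genes 4.14% were. IL6ST, the signalling chain used by IL6R, read 10.54 at 24 h, 10.30 at 12 h and 10.44 with Pam3CSK4, against 9.27 in resting cells. The difference with Pam3CSK4 was 1.16, and its 4 probe sets above the filter level ran from 0.58 to 1.16. IL7R, the IL-7 binding chain, read 7.94 at 24 h, 8.67 at 12 h and 7.78 with Pam3CSK4, against 6.11 in resting cells, under the filter level. It differed by 1.66 with Pam3CSK4 and by 0.89 at 12 h.

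Among 15 kinases, STATs and adaptors that passed the filter, 1 was at least 2-fold higher with Pam3CSK4 and none lower, where 4.14% and 1.71% of all tested genes were, and the list median was 0.25 against -0.05 over all tested genes. That 1 was LYN, a SRC family kinase that works beneath KIT and CSF2RB, which read 12.76 at 24 h, 12.75 at 12 h and 12.67 with Pam3CSK4, against 10.68 in resting cells. Its 3 probe sets differed by 1.99 to 2.39. STAT3 differed by 0.75, GAB2 by 0.78, TYK2 by 0.62 and STAT5A by 0.57, each under 2-fold.

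Of the 9 brake genes that passed, 2 were past 2-fold with Pam3CSK4 on their representative probe sets, where 5.85% of all tested genes were. DUSP6, an ERK phosphatase, was higher with Pam3CSK4 by 1.61, and SOCS2, a STAT5 target that restrains cytokine receptors, was lower, with a difference of -1.49. SOCS3, which restrains CSF3R and IL6ST, gave no single value. Its representative probe set read 6.58 at 24 h, 6.84 at 12 h and 6.50 with Pam3CSK4, against 6.67 in resting cells, a difference of -0.17 with Pam3CSK4. Another read 7.62 at 24 h, 7.50 at 12 h and 7.11 with Pam3CSK4, against 4.33 in resting cells, under the filter level, a difference of 2.79. The remaining one that passed the filter read 6.38 at 24 h, 6.53 at 12 h and 6.42 with Pam3CSK4, against 5.84 in resting cells, a difference of 0.58. The probe sets of SOCS3 thus disagreed in size, and of those that passed the representative one alone was lower with Pam3CSK4.

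SOCS2 read 6.23 at 24 h, 6.35 at 12 h and 5.23 with Pam3CSK4, against 6.72 in resting cells. On representative probe sets it was the 1 gene of these pathway lists past 2-fold between a co-culture array and Pam3CSK4. It was 2.19-fold higher at 12 h and 2.01-fold at 24 h, from a Pam3CSK4 value under the filter level. Of all tested genes, 0.761% at 12 h and 0.0298% at 24 h were past 2-fold in either direction. Of the 12 targets, FOS differed by 1.13 with Pam3CSK4 and the other 11 by less than 2-fold on their representative probe sets, while another EGR1 probe set was at -1.07. Of the 3 sheddase genes, ADAM10 and ADAM17, which cut receptors from the surface, differed by less than 0.01 and by 0.16 with Pam3CSK4. RHBDF2, which brings ADAM17 to the surface, differed by 1.46. For the targets and sheddases alike, 4.14% of all tested genes were at least 2-fold higher with Pam3CSK4.

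**Figure D3:**
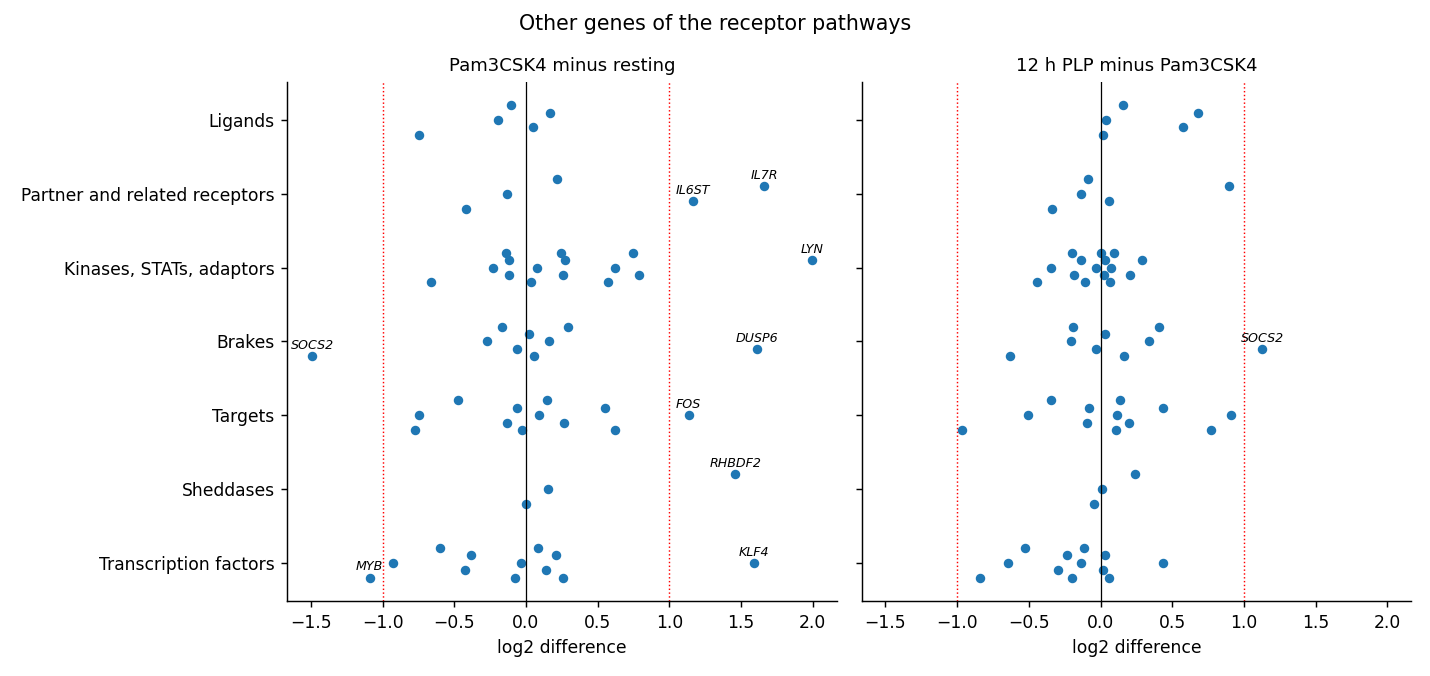
Log2 differences of the other pathway genes that passed the filter, 1 point per gene on its representative probe set and 1 row per list, for Pam3CSK4 minus resting (left) and 12 h co-culture minus Pam3CSK4 (right). Dotted red lines mark 2-fold and genes past it are named; vertical offsets within a row carry no value. LYN lay at 1.99 and SOCS2 at -1.49 on the left, and SOCS2 at 1.13 was the 1 gene past 2-fold on the right.

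Of the 12 transcription factors that passed, KLF4, a monocyte factor, was higher with Pam3CSK4 by 1.59, with probe sets from 0.74 to 1.59. MYB, a progenitor factor, was lower, with a difference of -1.09 and probe sets from -1.09 to -0.94. Of all tested genes, 4.14% were at least 2-fold higher with Pam3CSK4 and 1.71% at least 2-fold lower. MYB read 11.75 at 24 h, 11.35 at 12 h and 11.88 with Pam3CSK4, against 12.97 in resting cells, so unlike KIT it was lowest at 12 h, where its probe sets differed from Pam3CSK4 by -1.03 to -0.53. With Pam3CSK4, LYL1 differed by -0.92, IRF8 by -0.60, GATA2 by -0.43, SPI1, which encodes PU.1, by 0.26 and CEBPA by -0.08. MITF differed by 0.14 with Pam3CSK4 and by 0.44 at 12 h on its representative probe set. On another MITF probe set that passed the filter these differences were 0.54 and 0.20. GATA2 differed by -0.64 at 12 h on its representative probe set, and by 0.11 and 0.03 on its others.

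Likeness to the 2 receptors past 2-fold was measured as the Euclidean distance between log2 profiles over the 4 arrays after the mean of each gene was removed. The genes nearest to KIT were CLSTN2 at 0.29, CLEC12A at 0.47 and PRLR at 0.51. CLSTN2 read 7.43 at 24 h, 8.21 at 12 h and 7.51 with Pam3CSK4, against 9.78 in resting cells, while CLEC12A was above the filter level on the resting array alone and PRLR on the 12 h and resting arrays. Nearest to CSF2RB were SLC1A3 at 0.05, GALNT6 at 0.06 and MARCKS at 0.08. Among the receptors themselves the closest pair was FLT3 and CSF3R, at 0.14, and CSF3R ranked 271 of the tested genes by distance from FLT3. With 4 arrays such likeness is a description.

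**Figure D4:**
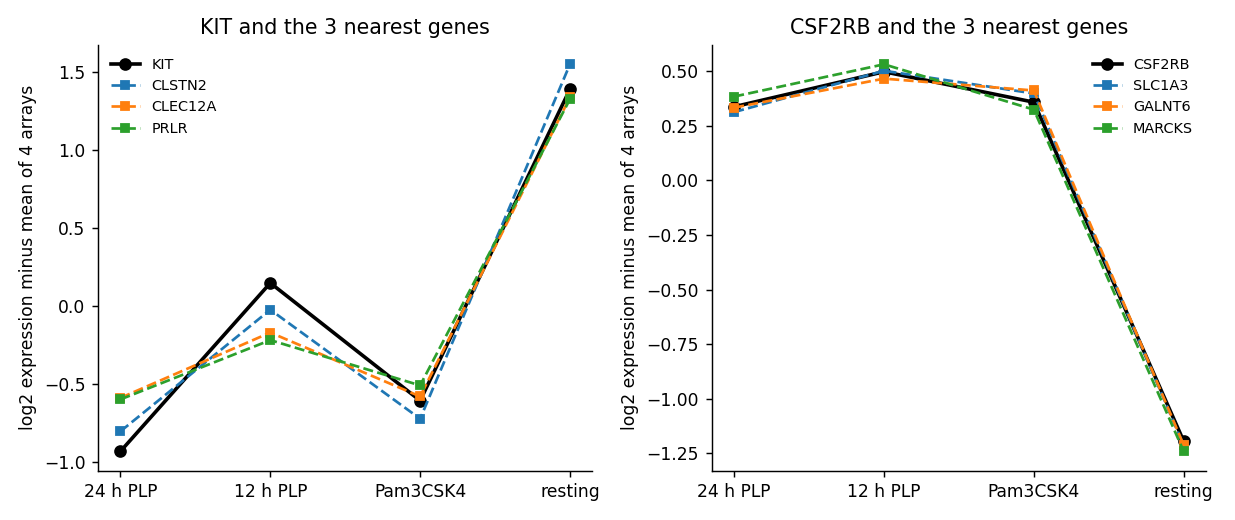
Log2 expression minus the mean of the 4 arrays for KIT (left) and CSF2RB (right), in black, and the 3 nearest genes of each, dashed, on the 24 h and 12 h co-culture, Pam3CSK4 and resting arrays. Each point is 1 array, and lines join the points of a gene. KIT and its neighbours peak on the resting array with a lesser peak at 12 h, and CSF2RB and its neighbours are lowest on the resting array.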

How the data were processed

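Total RNA of THP-1 cells carrying a biotin label was read on 4 Affymetrix arrays, 1 per group, per the labels' protocols. The deposited values are log2 values made with RMA in affy 1.28.1, per the submitters' processing notes. RMA corrects background and forces the arrays to a common distribution, so a global change in RNA content cannot be seen and differences at low level are compressed. The values lie between 2.54 and 15.22. No detection calls were used, so signal over background was judged by level only.

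Groups came from the source labels. Titles of the co-culture samples end in numbers without a unit that differ from the hours of their source labels and descriptions, which were used. Genes came from the platform annotation: 41091 probe sets name 1 gene, and the 1801 that name several were not used. The probe set of highest mean represented a gene, and a gene was counted where it reached 6.19 on at least 1 array. All differences are between 2 arrays, counted past 2-fold, with no test. The named genes were the 8 receptors, their ligands, list members past 2-fold, and the 3 genes nearest to each receptor past 2-fold. Other list members named under 2-fold, and the cell type markers, were chosen after their values were seen. Receptors and lists were chosen with earlier results of these data known.

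Alternatives were the mean of probe sets, omission of _x_at and _s_at probe sets, cyclic loess (limma 3.58.1 in R 4.3.3, 3 iterations), subtraction of array medians, no filter, a filter at 8.01, and thresholds of 1.5-fold and 3-fold. The counting step alone was run on simulated arrays with shifts set in advance, which says nothing about the spread between cultures. Python 3.11.15, numpy 2.4.6, pandas 2.3.3 and matplotlib 3.10.9 were used. Receptor proteins were not used here. The number of arrays limits the precision.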

Additional observations from a re-analysis of the deposited data

Results flagged for a closer look

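KIT differed from Pam3CSK4 alone in opposite directions on the co-culture arrays, by 0.75 log2 at 12 h and by -0.32 at 24 h. Each is a single array on a single probe set, the 24 h value is under the filter level, and the difference between the times was not tested.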

How the results depend on the processing

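The 8 genes were compared under 6 alternatives that could change their values or leave genes out, which gave 176 differences. Many of these were fixed in advance. No filter, the filter at 8.01 and the omission of probe sets altered no value of the genes kept. The mean of probe sets altered none for genes with 1 probe set. Values of KIT and CSF2RB could thus move only under cyclic loess and subtraction of array medians. Of the 176, 170 kept their sign and their side of 2-fold, and the other 6 changed sign from sizes of at most 0.101. Of those 6, 4 did so under cyclic loess, where FLT3, CSF3R and IL6R were at 0.05, 0.03 and 0.10 at 12 h against Pam3CSK4. KIT ranged from -2.00 to -1.95 with Pam3CSK4 against resting cells, from 0.71 to 0.75 at 12 h and from -0.32 to -0.31 at 24 h against Pam3CSK4, and CSF2RB from 1.55 to 1.58 with Pam3CSK4. KIT and CSF2RA had no value without _x_at and _s_at probe sets, so the count past 2-fold was 1 instead of 2 with Pam3CSK4 and 0 instead of 1 at 24 h against 12 h. Counts past 1.5-fold were 5 with Pam3CSK4 and 1 at 12 h, and past 3-fold 1 with Pam3CSK4 and 0 at 24 h against 12 h. CSF2RA and IL3RA were not counted with the filter at 8.01. Signal over background limits KIT at 24 h. No paired analysis was possible because each group holds 1 array.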
